A study of Mus musculus with 4 samples.

Results

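MicroRNA genes were described here by the labelled RNA counted over their hairpins in double positive (DP) thymocytes, the CD4+CD8+ stage of T cell development. Members were chosen by 3 criteria on the deposited fragment count table. The gene name had to start with Mir and a digit, the row could be at most 200 bp long, and its count summed over the 4 libraries had to be at least 40. Of 24984 rows, 1170 carried such a name, 1109 of them were short enough and 272 passed the count. These 272 loci were split into 233 that lay wholly within another gene's interval on the same strand and 39 that did not. Because the summed count chose the members, their levels are a description and no test is attached to them.

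In TTchem-seq, cells take up 4-thiouridine (4sU) briefly and the RNA that holds it is sequenced, so that introns and short-lived primary transcripts are read as well as mature RNA. The series held 2 libraries from mice with the genotype Tox4;F/F, named WT here, and 2 from mice with the genotype Tox4;F/F;Lck+, named cKO here. Per the study, animals were littermates of 6 to 8 weeks. Mice of both genotypes carry the floxed Tox4 alleles, and the cKO mice also carry Cre under the proximal Lck promoter, which acts from a stage before DP. Cells were kept in fresh medium for 0.5 h before labelling, in both genotypes, and library totals ran from 38429786 to 48690591 fragments. The study speaks of biological replicates, but nothing in the labels says that the libraries of a genotype came from separate animals. The p-values therefore measure the spread between these libraries. Levels are given as CPM, the count divided by the library total and scaled as is usual for that unit. Tox4 itself was at 74.0 and 70.3 CPM in WT and at 59.3 and 57.2 CPM in cKO, with a DESeq2 adjusted p of 0.0453. The reduction was in the direction of the labels, although the row spans the whole gene and not the floxed exons alone.

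DP markers were abundant, with 15 of 15 at a mean of at least 1 CPM and a summed level between 11711 and 13446 CPM per library, and 0 of them were called higher and 3 lower in cKO, namely Cd8a, Rag1 and Tcf7. The summed level of the 7 markers of mature single positive cells ran from 442 to 512 CPM, with Il7r among those called higher and Ccr7 called lower. The summed erythroid list stayed at or below 0.780 CPM, the B cell list between 18.3 and 25.9 CPM and the myeloid list between 9.88 and 12.2 CPM, and none of their genes was called. Of the 8 thymic stroma markers only Pecam1 reached 1 CPM, and Psmb11, a defining marker of cortical epithelium, was at 0 in every library. Xist, the RNA of the inactive X chromosome, reached 172 CPM in WT replicate 1, and the other libraries stayed at or below 2.36 CPM. The precursor ribosomal row Rn45s held between 2.44% and 4.30% of each library. Whether any of these differences has a part in the results below was not tested.

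A microRNA is cut from a hairpin in a longer primary transcript. Drosha and its partner Dgcr8 release the hairpin in the nucleus, Xpo5 exports it and Dicer1 trims it to a duplex, of which an Argonaute protein keeps one strand. Bases 2 to 8 of that strand, the seed, pair with target messenger RNAs. Many hairpins sit in introns of protein-coding genes and are transcribed with them, and others have transcripts of their own. In thymocytes, miR-181a is known to raise the sensitivity of T cell receptor signalling, miR-142 is a microRNA of all blood cells, and the miR-17 to miR-92a cluster favours lymphocyte growth and survival. The assay reads the primary transcript over the hairpin and not the mature microRNA.

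RefSeq hairpins on the same genome build (GRCm38.p6, that is mm10) were matched for 243 members, and for all 243 the coordinates equalled those of the table. Mature sequences were matched for 254 members. They gave 429 mature RNAs with 392 distinct seeds, and 29 seeds were shared by more than 1 member. The hairpins of the locus with the highest level and of the thymic miR-181a locus are shown first, 5′ to 3′, with both mature arms in capitals.

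Mir142 hairpin: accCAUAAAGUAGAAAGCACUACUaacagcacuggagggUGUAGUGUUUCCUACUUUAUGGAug
Mir181a-1 hairpin: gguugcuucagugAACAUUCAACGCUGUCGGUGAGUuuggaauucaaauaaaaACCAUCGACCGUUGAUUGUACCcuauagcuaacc

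The seed ACAUUCA was shared by 4 members at 2 places of the genome, Mir181a-1 with Mir181b-1 and Mir181c with Mir181d. The mature 5p arms are shown with the seed in capitals, since Mir181b-1 had the highest level of the outside loci after Mir142.

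mmu-miR-181a-5p: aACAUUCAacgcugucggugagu
mmu-miR-181b-5p: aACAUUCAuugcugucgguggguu
mmu-miR-181c-5p: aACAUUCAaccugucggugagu
mmu-miR-181d-5p: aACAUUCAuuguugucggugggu

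The seed AAAGUGC was also shared by 4 members, Mir17 and Mir20a in one cluster and Mir106b and Mir93 in another. These arms are shown because the same seed is there supplied by loci outside and inside other genes.

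mmu-miR-17-5p: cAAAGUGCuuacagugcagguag
mmu-miR-20a-5p: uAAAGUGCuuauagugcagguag
mmu-miR-93-5p: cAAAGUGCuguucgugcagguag
mmu-miR-106b-5p: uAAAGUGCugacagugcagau

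Clusters on chromosomes 8 and 13 each carry a miR-27 with the seed UCACAGU and give the same miR-24-3p with the seed GGCUCAG. They are shown because the summed level of the first cluster was higher, and that of the second lower, in both cKO libraries than in WT, as given below, while no hairpin of either was called.

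mmu-miR-27a-3p: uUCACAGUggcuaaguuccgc
mmu-miR-27b-3p: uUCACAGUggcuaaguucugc
mmu-miR-24-3p: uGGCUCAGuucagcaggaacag

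One strand of the chromosome 8 site gives Mir24-2 and the other Mir3074-2. Both hairpins are shown with mature arms in capitals, because they overlap on opposite strands and had fold changes of opposite sign.

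Mir24-2 hairpin: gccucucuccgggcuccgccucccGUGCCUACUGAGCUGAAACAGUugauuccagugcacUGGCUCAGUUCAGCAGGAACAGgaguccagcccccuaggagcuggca
Mir3074-2 hairpin: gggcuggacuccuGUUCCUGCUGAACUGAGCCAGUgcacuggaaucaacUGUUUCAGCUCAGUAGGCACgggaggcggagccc

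The members were short and mostly sparse. Their lengths ran from 43 to 139 bp with a median of 75 bp, and their mean levels from 0.236 to 68.2 CPM with a median of 0.600 CPM. A mean of at least 1 CPM was reached by 80 inside and 14 outside members. Per length, the median was 8.44 CPM per kb inside and 8.20 CPM per kb outside. A fragment longer than the row counts in full when it overlaps it, so levels per kb of such short rows are higher than those of long genes at equal output. Members lay on 20 chromosomes, with 4 on X and 7 on chromosome 18, whose sequences are not shown here.

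Fragments appear to have been shared between rows. How the deposited values were split is not stated, but they read as if a fragment over several rows of one strand was divided equally among them. Of the 226 inside members with 1 overlapping row, 215 had only multiples of 0.5 as values, and of the 36 members with no overlapping row, 23 had only whole values. If so, an inside member at a count of 40 was overlapped by about 80 fragments, and the limit asked more of inside than of outside loci. Just inside it lay Mir7003 in Mybl2 with a summed count of 40, Mir3068 in Alkbh1 with 40.5 and Mir1949 in Snhg4 with 41. Just outside lay Mir6407 in Xpnpep1 with 39 and Mir7028 in Tchp and Mir6897 in Uggt1 with 39.5 each. Of the short rows that did not pass, 490 were at 0 in every library and 347 had between 0 and 40. The let-7 rows are named Mirlet and fell outside the name rule, with 5 of 11 at a summed count of at least 40. Near-identical copies elsewhere in the genome were found for 4 members, Mir6970, Mir5123, Mir686 and Mir682, and their counts are uncertain.

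Of the 39 outside loci, 37 lay in no curated RefSeq transcript of their strand, and 24 lay in a GENCODE gene. Mir142 had by far the highest level of all members. It lies on chromosome 11, 87756864 to 87756927 (plus strand), within the long noncoding gene Mir142hg of GENCODE. WT libraries held 3442 and 3323 of its fragments and cKO libraries 2948 and 1880. Its levels of 80.7 and 68.2 CPM in WT and 76.7 and 47.3 CPM in cKO overlapped, because cKO replicate 1 lay between the WT libraries and cKO replicate 2 below them. The log2 fold change was -0.27 (SE 0.357, 95% interval -0.97 to 0.43), with a DESeq2 adjusted p of 0.832. This call rested on 1 library: without cKO replicate 1 the log2 fold change was -0.65 and Mir142 was called lower with a DESeq2 adjusted p of 0.0133, and without cKO replicate 2 it was 0.036. The row Mir142b on the opposite strand, which is no member, held 1, 1, 4 and 1 fragments. Per length Mir142 was at 1066 CPM per kb, against 192 CPM per kb for Mir3064, the highest inside locus. It held between 13.2% and 18.7% of all member fragments of a library.

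Mir181a-1 and Mir181b-1 lie together on chromosome 1, 137966455 to 137966718 (plus strand). Mir181b-1 was at 8.57 and 5.71 CPM in WT and 9.76 and 6.04 CPM in cKO, and Mir181a-1 at 4.00 and 3.08 CPM in WT and 6.27 and 3.02 CPM in cKO. For both hairpins the libraries numbered 1 lay above those numbered 2 in each genotype, and the genotypes overlapped. The log2 fold changes were 0.14 (SE 0.291, with adjusted p of 0.902 by DESeq2) and 0.39 (SE 0.378, with adjusted p of 0.746 by DESeq2), with 95% intervals from -0.43 to 0.71 and from -0.35 to 1.13. Intervals of this width leave a change of 1.5-fold or more in the longer direction within reach, so that equal output was not shown. Both values turned below 0 without cKO replicate 1, to -0.24 for Mir181b-1 and -0.22 for Mir181a-1.

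Mir8114 (chromosome 1, 153899926 to 153900036, plus strand) is counted as outside because it only partly overlaps Glul, the glutamine synthetase gene. It was at 5.27 and 5.84 CPM in WT and 4.38 and 4.14 CPM in cKO. Both cKO libraries lay below both WT libraries, by -0.39 on the log2 scale (SE 0.284, adjusted p of 0.604 from DESeq2). Mir219b on chromosome 2 was at 1.60 and 1.58 CPM in WT and 1.41 and 1.03 CPM in cKO, which also did not overlap. Its log2 fold change was -0.39 (SE 0.523), or -0.62 without cKO replicate 1 and -0.18 without cKO replicate 2, and like most members it received no adjusted p, because DESeq2 sets rows of low mean count aside before the adjustment.

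**Figure D1:**
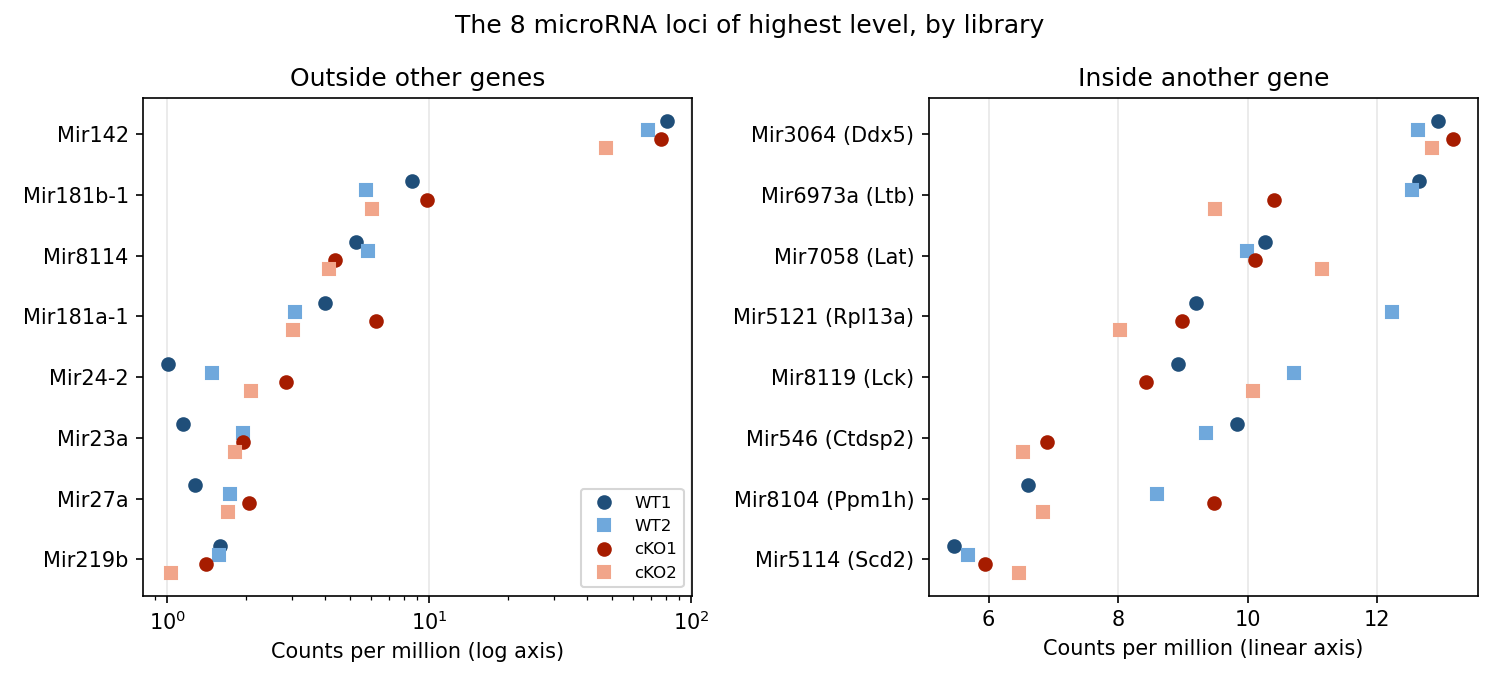
The 8 microRNA loci with the highest mean level outside other genes (left, log axis) and inside another gene (right, linear axis, host in parentheses), each with its CPM in the 4 libraries as points. Mir142 stands at 47.3 to 80.7 CPM and the other outside loci below 10, and both cKO points lie left of both WT points for Mir8114, Mir219b, Mir6973a, Mir5121 and Mir546 and right of them for Mir24-2 and Mir5114.

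No member was called. A call asked for a Benjamini-Hochberg adjusted p under 0.05 over the whole table, a change of at least 1.2-fold and a mean of at least 1 CPM. Over all rows of the table, 431 of 11625 rows with that mean were called, or 3.71%, with 2.14% higher and 1.57% lower in cKO, while 0 of the 94 members with that mean were. DESeq2 gave an adjusted p to 32 of the 272 members, the lowest being 0.213 for Mir546. At an unadjusted p under 0.05 there were 4 members, against 11.8% of the 13716 rows with a summed count of at least 40. The edgeR quasi-likelihood test gave 11 and limma voom 8 members at an unadjusted p under 0.05, and neither called any. The share of all rows under that p was taken for DESeq2 alone, so these counts have no background beside them. The median standard error of the log2 fold change was 0.80 over members and 0.175 over the 13716 rows, so a change of a given size was harder to detect at these rows.

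The 4 members at an unadjusted p under 0.05 were Mir6236, Mir546, Mir24-2 and Mir3074-2. Mir6236 on chromosome 9, an annotated hairpin for which no function is given here, held 1 and 1 fragments in WT and 2 and 70 in cKO. It passed the count limit through cKO replicate 2 alone, so its fold change is the difference of 1 library from the other 3. Mir24-2 and Mir3074-2 are transcribed from opposite strands of the same site and are described with their cluster.

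In 31 members the cKO libraries were both higher than either WT library, and in 79 both lower, against 23.8% and 23.4% of the 13716 rows with a summed count of at least 40. Among members these were 11.4% and 29.0%, with no test attached to the difference from the table. Inside loci gave 26 above and 69 below, and outside loci 5 above and 10 below. The median log2 fold change was -0.14 over inside and -0.13 over outside members, the latter running from -0.24 to -0.062 when 1 library was left out, beside -0.003 over all rows with that summed count. It was -0.05 over the 222 distinct host genes and -0.27 over 84 small nucleolar RNA rows taken by the same length and count limits. Of those hosts 20.3% had both cKO libraries above WT and 38.3% below. Of those small nucleolar RNA rows these were 7.14% and 40.5%. Over the whole member set the summed level was 433 and 415 CPM in WT and 417 and 357 CPM in cKO, lowest in cKO replicate 2, and 352 and 346 against 340 and 310 CPM without Mir142. Without cKO replicate 2, 34.6% of members lay above and 44.9% below both WT libraries, against 39.3% and 37.8% of the table in the same comparison, so that the upward shares were closer. As no spike-in entered the scaling, a change of total output per cell cannot be told apart from none, and fewer cells with a transcript cannot be told apart from less RNA per cell.

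**Figure D2:**
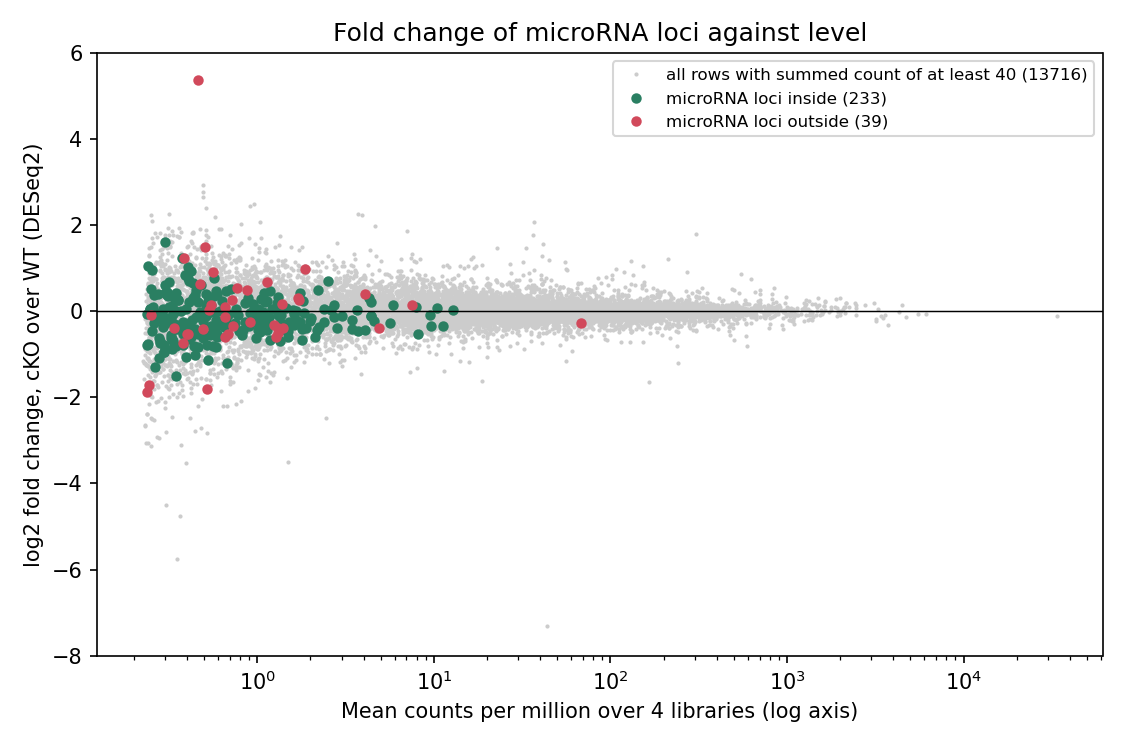
Log2 fold change of cKO over WT (DESeq2) against mean CPM on a log axis for the 13716 rows with a summed count of at least 40 (grey), with the 233 inside loci in green and the 39 outside loci in red. The members spread widely at low level and lie near 0 at higher level, and the single point above 5 is Mir6236.

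Members in clusters share primary transcripts, and 32 members lay in 13 clusters whose neighbours were at most 10000 bp apart on 1 strand. A fragment over adjoining hairpins may be divided between them, and the sum over a cluster joins those parts. Any part that goes to a host row is not in the sum. These sums carry no test.

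The cluster of Mir23a, Mir27a and Mir24-2 (chromosome 8, 84208518 to 84208921, plus strand) summed to 3.44 and 5.18 CPM in WT and 6.82 and 5.61 CPM in cKO. The genotypes did not overlap, but WT replicate 2 and cKO replicate 2 were close. Within it the separation came from Mir24-2, at 1.01 and 1.49 CPM in WT and 2.83 and 2.08 CPM in cKO. Mir24-2 had a log2 fold change of 0.98 (SE 0.475, unadjusted DESeq2 p of 0.0398), the largest among members of at least 1 CPM with separated libraries. Mir23a had a log2 fold change of 0.27 (SE 0.494) and Mir27a of 0.32 (SE 0.483), and both overlapped between genotypes. Without WT replicate 1 these were -0.064 and 0.097, and without WT replicate 2 they were 0.71 and 0.57. Mir27a was at 0.19 without cKO replicate 1. Mir3074-2, on the opposite strand within the Mir24-2 interval, was at 0.868 and 0.739 CPM in WT and 0.104 and 0.352 CPM in cKO, from 37, 36, 4 and 14 fragments. Its log2 fold change of -1.81 (SE 0.924, unadjusted DESeq2 p of 0.0498) was opposite in sign to that of Mir24-2.

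The related cluster of Mir23b, Mir27b and Mir24-1 lies inside Aopep, an aminopeptidase gene, on chromosome 13 (63300484 to 63301275, plus strand). It summed to 2.89 and 2.29 CPM in WT and 1.89 and 2.02 CPM in cKO, with both cKO libraries below WT. No hairpin of it had an adjusted p, and their log2 fold changes ran from -0.60 to -0.24 with SEs of at least 0.672. The 2 loci of miR-24 together were higher in both cKO libraries, at 3.23 and 2.62 CPM, than in WT, at 1.97 and 1.96 CPM.

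Mir181c and Mir181d, on the minus strand of chromosome 8 (84178716 to 84178961), summed to 0.845 and 0.924 CPM in WT and 1.74 and 1.58 CPM in cKO. This cluster was separated upward, from 36, 45, 67 and 63 fragments. Mir181d alone had a log2 fold change of 1.49 (SE 0.874, unadjusted DESeq2 p of 0.0877) and Mir181c of 0.54 (SE 0.695, unadjusted DESeq2 p of 0.437). The 4 loci with the miR-181 seed together were at 13.4 and 9.71 CPM in WT and 17.8 and 10.6 CPM in cKO and overlapped, since most of this sum came from chromosome 1.

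In the miR-17 to miR-92a cluster (chromosome 14, 115043671 to 115044506, plus strand), Mir17, Mir18, Mir19a and Mir20a counted as outside and Mir92-1 as inside Mir17hg, whose row in the table is 2339 bp long. The 5 hairpins summed to 3.21 and 2.92 CPM in WT and 2.06 and 3.60 CPM in cKO, so the genotypes overlapped and the cKO libraries were the lowest and the highest. The Mir17hg row was at 4.29 and 4.35 CPM in WT and 7.85 and 5.69 CPM in cKO, which is 0.64 on the log2 scale (SE 0.283, adjusted p of 0.231 from DESeq2). Host row and hairpins thus gave different orders of the libraries, and neither was called.

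The cluster of Mir106b, Mir93 and Mir25 lies in an intron of Mcm7, a subunit of the replicative helicase, on chromosome 5 (138165321 to 138165818, minus strand). It summed to 7.46 and 4.47 CPM in WT and 6.47 and 5.28 CPM in cKO and overlapped. Mir106b, its most abundant hairpin, had a log2 fold change of -0.12 (SE 0.384, with adjusted p of 0.947 by DESeq2), beside 0.05 (DESeq2 adjusted p of 0.889) for Mcm7. The 4 loci with the seed AAAGUGC were together at 6.32 and 4.07 CPM in WT and 4.36 and 4.74 CPM in cKO.

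Among other members known from T cells, Mir191 and Mir425 summed to 1.08 and 1.62 CPM in WT and 2.29 and 1.11 CPM in cKO. Mir30c-1 and Mir30e, in an intron of the transcription factor subunit Nfyc, summed to 1.07 and 0.801 CPM in WT and 0.533 and 0.591 CPM in cKO, without overlap, while Nfyc had a log2 fold change of -0.02. Of the 92 rows of at most 200 bp on a list of 98 T cell microRNA loci, 36 were members. Outside the clusters they included Mir128-2 in Arpp21 at 0.762 to 1.39 CPM, Mir26b in Ctdsp1 at 0.729 to 1.13 CPM, Mir342 in Evl at 0.270 to 0.651 CPM and Mir15b in Smc4 at 0.117 to 0.469 CPM. At such levels a member holds few fragments, and none of the 36 had an adjusted p under the threshold. Some of them, such as Mir24-2, Mir23a and Mir27a, received no adjusted p at all, so for these the threshold could not be met.

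**Figure D3:**
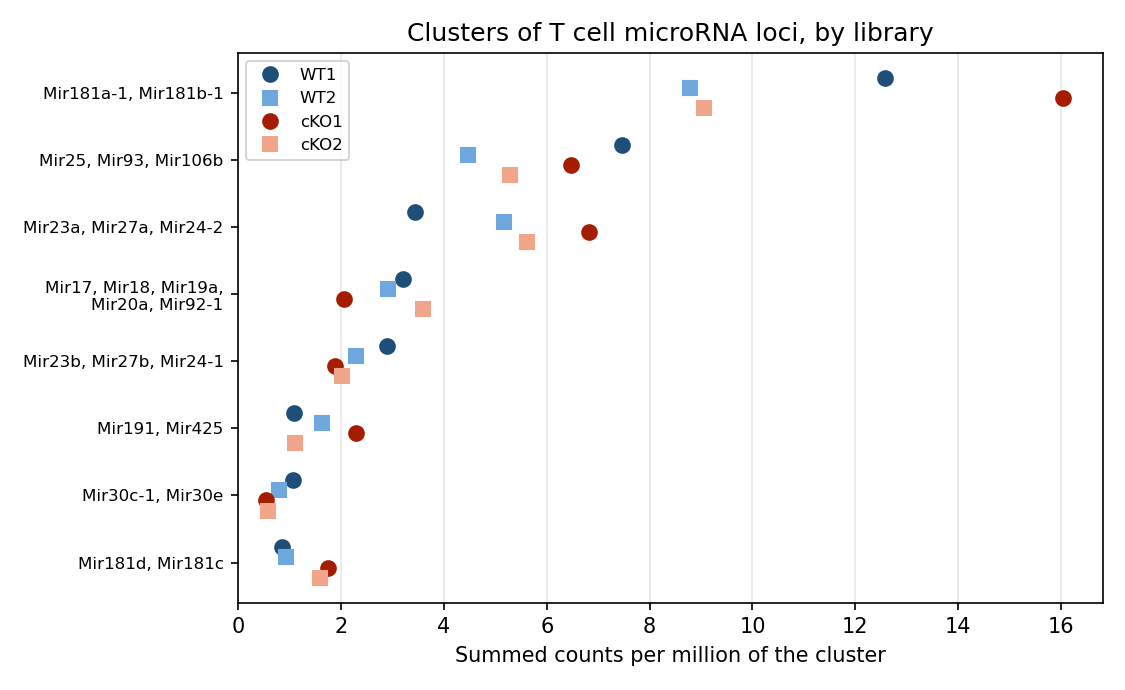
Summed CPM of the 8 clusters that consist of listed T cell microRNA loci, with 1 point per library. The cKO points lie right of both WT points for Mir23a, Mir27a, Mir24-2 and for Mir181d, Mir181c, and left of both for Mir23b, Mir27b, Mir24-1 and for Mir30c-1, Mir30e. In the other 4 clusters the genotypes overlap.

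The 233 inside loci had 222 distinct hosts, and 9 hosts held more than 1 member. In curated RefSeq transcripts 175 hairpins were intronic, 18 exonic and 31 across an exon-intron boundary, and for 9 the position differed between transcripts. Of the 18 exonic hairpins 6 lay in the 3′ UTR alone and 3 in the 5′ UTR alone, and 4 lay in coding sequence alone. One end of the hairpin coincided with an intron end within 2 bases in 104 inside members, and both ends did in 8. Hairpins that fill a short intron are known as mirtrons, which are released by splicing in place of Drosha. The 8 were Mir7058 in Lat, Mir1982 in Oaz1, Mir7060 in Fbrs, Mir7068 in Cherp, Mir6970 in Skiv2l, Mir6958 in Dennd6b, Mir1981 in Marc2 and Mir877 in Abcf1. The hairpin of Mir7058, which equals the whole intron of Lat, is shown with its mature arms in capitals. It starts with gu and ends with AG, the ends of an intron.

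Mir7058 hairpin: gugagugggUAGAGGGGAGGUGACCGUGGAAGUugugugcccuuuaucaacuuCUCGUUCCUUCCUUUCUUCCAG

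The inside loci with the highest levels are described with their hosts. Mir3064 (chromosome 11, 106782693 to 106782759, minus strand) spans an exon-intron boundary of Ddx5, an RNA helicase that works with Drosha. It was at 12.9 and 12.6 CPM in WT and 13.2 and 12.9 CPM in cKO, with a log2 fold change of 0.02 (SE 0.181, 95% interval -0.33 to 0.38). This is the narrowest interval among members and leaves out a change of 1.5-fold in either direction. Ddx5 had a log2 fold change of -0.22 with a DESeq2 adjusted p of 0.129. Mir7058 in Lat, an adaptor of T cell receptor signalling, was at 10.3 and 9.99 CPM in WT and 10.1 and 11.2 CPM in cKO, with a log2 fold change of 0.07 (SE 0.201), beside 0.02 for Lat.

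Mir6973a (chromosome 17, 35194972 to 35195049, plus strand) lies in an intron of Ltb, the gene of lymphotoxin beta. It was at 12.6 and 12.5 CPM in WT and 10.4 and 9.49 CPM in cKO, without overlap. Its log2 fold change was -0.34 (SE 0.193, DESeq2 adjusted p of 0.441), and Ltb was called lower at -0.44 (DESeq2 adjusted p of 0.00103). Mir5121 in Rpl13a, a ribosomal protein gene, was at 9.21 and 12.2 CPM in WT and 8.99 and 8.04 CPM in cKO, with a log2 fold change of -0.34 (SE 0.226). Leaving out WT replicate 1 gave -0.53, and leaving out WT replicate 2 gave -0.11.

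Mir546 (chromosome 10, 126998440 to 126998560, plus strand) lies in the 3′ UTR of Ctdsp2, a phosphatase of the RNA polymerase II tail. It was at 9.84 and 9.35 CPM in WT and 6.90 and 6.53 CPM in cKO. The libraries of the genotypes did not overlap, with a log2 fold change of -0.52 (SE 0.223, with adjusted p of 0.213 by DESeq2). The edgeR quasi-likelihood adjusted p was 0.0743. Mir26a-2 in an intron of the same gene, upstream of it, was at 0.282 and 0.298 CPM in WT and 0.325 and 0.252 CPM in cKO, and Ctdsp2 had a log2 fold change of -0.25 (DESeq2 adjusted p of 0.0309), under the fold asked for a call.

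Mir8119 (chromosome 4, 129557683 to 129557811, minus strand) spans an exon-intron boundary of Lck, the kinase that starts T cell receptor signalling. It was at 8.93 and 10.7 CPM in WT and 8.43 and 10.1 CPM in cKO, with a log2 fold change of -0.09 (SE 0.222) that was 0.059 without WT replicate 2 and 0.043 without cKO replicate 1, while Lck was called higher at 0.29 (DESeq2 adjusted p of 0.00478). The cKO mice carry the proximal Lck promoter in their transgene, and its part in the Lck count was not tested. Mir8104 in coding sequence of the phosphatase gene Ppm1h was at 6.62 and 8.60 CPM in WT and 9.48 and 6.84 CPM in cKO. Mir5114 in Scd2, a fatty acid desaturase gene, was at 5.47 and 5.69 CPM in WT and 5.95 and 6.48 CPM in cKO, separated upward with a log2 fold change of 0.15 (SE 0.26), which was 0.082 without cKO replicate 2.

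Among the 94 members of at least 1 CPM, 8 had both cKO libraries above WT and 38 below, that is 8.51% and 40.4%. Of the 11625 rows with that mean these were 24.9% and 24.0%. The median standard error was 0.484 over these members and 0.148 over those rows. The shares above and below were 20.3% and 38.3% for hosts. For small nucleolar RNA rows, without a limit on that mean, they were 7.14% and 40.5%. After Mir24-2, the largest increase was that of Mir7-1 in an intron of Hnrnpk, whose product binds RNA. Mir7-1 was at 1.98 and 1.88 CPM in WT and 2.69 and 3.55 CPM in cKO, with a log2 fold change of 0.69 (SE 0.397, with adjusted p of 0.447 by DESeq2), and Hnrnpk at -0.005. Mir7227 in Arid1a, Mir6368 in 2610307P16Rik and Mir7578 in Brd3 followed, with log2 fold changes of 0.50, 0.41 and 0.24 and SEs between 0.428 and 0.573. The largest decreases were those of Mir7017 in Wasf2 (-0.68), Mir6516 in Snhg20 (-0.68), Mir6959 in Sbf1 (-0.66), Mir7077 in Cmip (-0.60) and Mir5107 in Cd74 (-0.59). Their SEs ran from 0.465 to 0.578, and none of these values passed the test. Several moved by more than 1.5 times when 1 library was left out. Mir7077 was at -0.19 without cKO replicate 1 and -1.17 without cKO replicate 2, and Mir6959 at -0.97 and -0.40. Mir7017 and Mir5107 were at -0.45 and -0.38 without cKO replicate 1, and among the increases Mir7227, Mir6368 and Mir7578 at 0.28, 0.19 and 0.13. Mir7227 was at 0.33 without WT replicate 2. Cd74, the invariant chain of MHC class II, was itself called lower at -0.75 (DESeq2 adjusted p of 0.0331).

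A member lies within its host and appears to share fragments with it, so their values are not taken as independent. Of the 222 hosts, 8 were called higher and 12 lower, all hosts being at a mean of at least 1 CPM. These are 3.60% and 5.41% of the hosts, beside 2.14% and 1.57% of all rows with that mean, with no test attached to the difference. The median standard error was 0.0953 over hosts and 0.148 over those rows, so a change of a given size was easier to detect in hosts. The hosts called higher held 8 members, of which 5 had a log2 fold change above 0, and those called lower held 14, of which 13 were below 0. Among the hosts called higher, Notch1, the receptor that commits cells to the T lineage, had a log2 fold change of 0.47 and Mir6996 within it 0.44. For Anxa2, a membrane-binding protein, the values were 0.51 and 0.41 for Mir3109, and for the purine synthesis enzyme Pfas 0.59 and 1.62 for Mir3062. Lck, Zmiz1, Mybl2 and Tmem39b were also called higher. The members below 0 in hosts called higher included Mir7016 in Tmem39b and Mir8119 in Lck. The sign of Mir8119 turned when 1 library was left out. Among the hosts called lower, Actg1, the gene of gamma actin, had -0.47 and Mir6935 within it -0.39, and the mitophagy kinase gene Pink1 -0.48 and Mir7019 -0.26. Wdfy2 held both the member against its direction, Mir6541 at 0.50, and Mir8098 at -0.21. Over the 233 inside loci the signs of member and host were the same in 145. Pearson's r between the log2 fold changes was 0.39, with Spearman's rho of 0.33. These values describe loci that share libraries and appear to share fragments. The median of member minus host was -0.09 on the log2 scale, and between -0.14 and -0.047 when 1 library was left out.

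**Figure D4:**
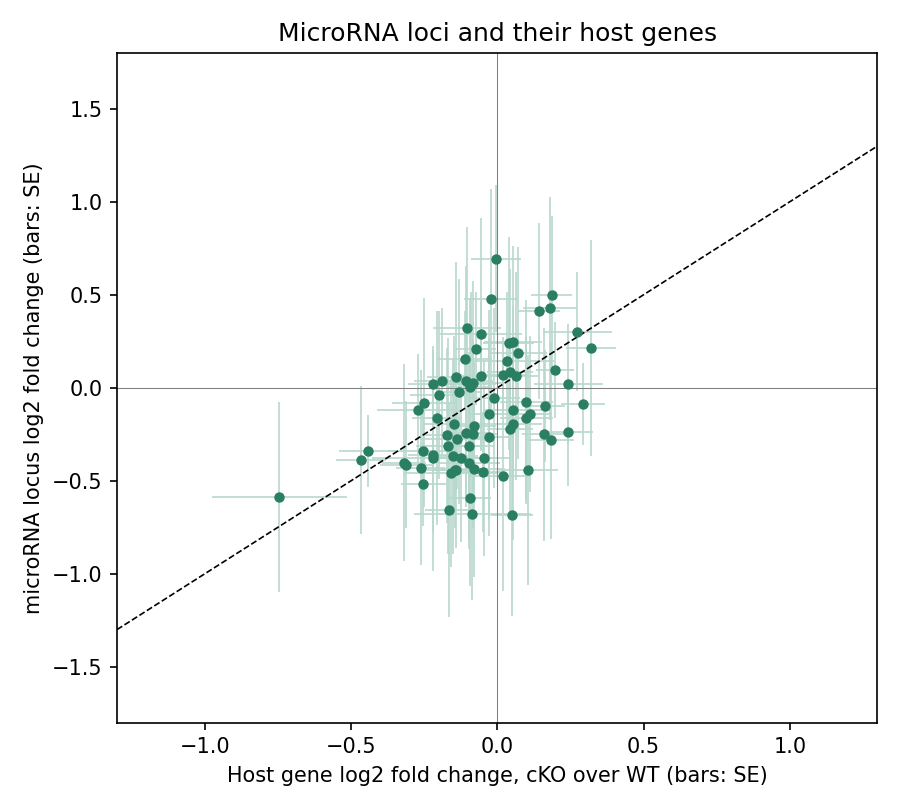
Log2 fold change of cKO over WT for the 80 inside loci with a mean of at least 1 CPM against that of their host genes, with bars of 1 standard error in each direction and a dashed line of equality. Standard errors of the loci are several times those of the hosts, and the leftmost point is Mir5107 in Cd74.

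The fragment density of a member, its summed count per base, was set against that of its host. The median ratio was 2.45, with quartiles of 1.60 and 4.13, and 19 members were below 1. Short rows collect fragments that reach beyond them while a part of each fragment appears to go to the host, so a ratio of 1 is no neutral point. The small nucleolar RNA rows inside a host, which are processed from introns and of similar length, had a median ratio of 1.21 over 80 rows. By position the median was 2.18 for intronic, 3.73 for exonic and 4.97 for boundary hairpins, so the medians were higher for hairpins that touch an exon, with no test attached.

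The highest ratio, 56.4, was that of Mir1904 in an intron of Pde4d, a cyclic AMP phosphodiesterase gene with a row of 1301793 bp. Mir1904 (chromosome 13, 109903809 to 109903888, plus strand) was at 4.27 and 4.80 CPM in WT and 4.41 and 4.09 CPM in cKO, so it was steady across libraries while lying far above the mean density of its host. Mir3103 in BC017158 (12.6), Mir5107 in Cd74 (12.1), and Mir27b (10.8) and Mir23b (10.4) in Aopep followed. The lowest ratios were those of Mir26a-2 in Ctdsp2 (0.213), Mir15b in Smc4 (0.261), Mir6935 in Actg1 (0.524) and Mir6374 in Tet3 (0.569), all intronic. Ctdsp2 thus held both the lowest ratio and Mir546 with a ratio of 4.22 in its 3′ UTR.

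**Figure D5:**
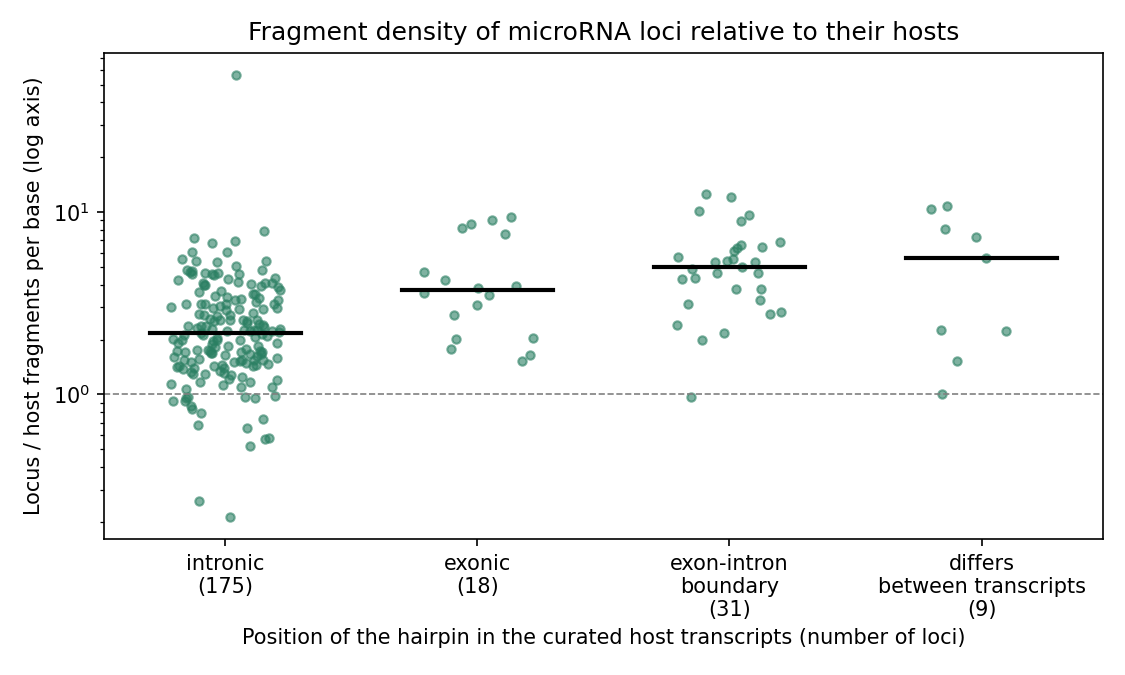
Ratio of fragments per base of each inside locus to that of its host (log axis) by position of the hairpin in curated RefSeq transcripts, with 1 point per locus, the median as a bar and a dashed line at 1. Medians are 2.18 for intronic, 3.73 for exonic, 4.97 for boundary hairpins and 5.63 for those whose position differs between transcripts, and the point at 56.4 is Mir1904.

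Of 39 listed genes 36 were in the table and 33 at a mean of at least 1 CPM, and 0 were called higher and 0 lower. At the 3.71% called over all rows a list of this size would hold about 1 call, so a count of 0 is near the background. Their median log2 fold change was -0.01. Drosha was at 103 and 96.3 CPM in WT and 101 and 100.3 CPM in cKO, with a log2 fold change of 0.01 (SE 0.0895). Its partner Dgcr8 was at 116 and 134 CPM in WT and 129 and 141 CPM in cKO (log2 fold change 0.11, SE 0.0994). The export factor Xpo5 had a log2 fold change of 0.03 (SE 0.0955) and Dicer1 of 0.02 (SE 0.0864). Ago2, the Argonaute with slicing activity, was at 732 and 748 CPM in WT and 820.2 and 811 CPM in cKO, separated upward with a log2 fold change of 0.14 (SE 0.0676, with adjusted p of 0.319 by DESeq2). The standard errors of these genes are far smaller than those of the hairpins. A change of 1.5-fold in either direction lies outside the 95% interval of each of the 5. Other listed genes with separated libraries and a lower adjusted p than Ago2 went both ways. Higher in cKO were Dis3l2 (log2 fold change 0.24, DESeq2 adjusted p of 0.0694), Ago3 (0.27, DESeq2 adjusted p of 0.175) and Tut4 (0.18, DESeq2 adjusted p of 0.229). Lower were Adar (-0.24, DESeq2 adjusted p of 0.109) and Ddx5 (-0.22, DESeq2 adjusted p of 0.129).

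Listed genes also host members. Besides Mir3064 in Ddx5, these were Mir1306 in coding sequence of Dgcr8, Mir5113 in the 3′ UTR of Tnrc6b and Mir7036 in an intron of Srrt. Mir1306 was at 0.966 and 1.36 CPM in WT and 0.811 and 0.910 CPM in cKO, with a log2 fold change of -0.44 (SE 0.617). Mir5113 was at 3.78 and 3.61 CPM in WT and 2.88 and 3.55 CPM in cKO (log2 fold change -0.21, SE 0.339), and Mir7036 had a log2 fold change of 0.06 (SE 0.401).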

How the data were processed

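The methods of the study state that the authors ran fastp 0.13.1 on the reads, aligned with STAR 2.7.9a to GRCm38 and took gene counts from the STAR output. The submitters' processing notes also name featureCounts 1.6.1. The deposited table holds expected counts, fragments per gene interval with introns, of which 8.61% are fractional, and the settings that made them are not given in the sources used here. Spike-in RNA did not enter the scaling.

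CPM used the table totals. Counts were rounded and fitted with DESeq2 1.42.0 over the whole table without covariates (Wald test, default size factors, unshrunken fold changes, Benjamini-Hochberg adjustment). The tool and the thresholds of a call are those of the study. edgeR 4.0.16 and limma 3.58.1 served as alternatives. Hosts were rows of the table whose merged interval on the same strand wholly holds the member. Named members were the 8 highest in each class, those on the T cell list, the 5 largest increases and decreases with separated libraries, the 5 highest and lowest density ratios and those at the count limit; Mir6236 and Mir3074-2, the mirtrons and the members in called hosts or in biogenesis genes were chosen after their values were seen. Members and lists were chosen with earlier results of these data known. Replicates differed beyond counting noise (chi-square per degree of freedom 2.15 in WT and 4.36 in cKO over members). Fragments carry no molecular identifiers. Some items are not reported here.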

Additional observations from a re-analysis of the deposited data

How the results depend on the processing

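No member and no biogenesis gene was called with edgeR, limma voom, TMM or library total size factors, a filter at 1 CPM, independent filtering off, values rounded down or unrounded, or without the fold or the CPM criterion. With a replicate block 0 members were called higher and 0 lower by both DESeq2 and edgeR, and the replicate numbers did not pair the libraries (correlation of deviations -0.03). Leaving out each library gave 0 members called higher and between 0 and 1 called lower; the 1 was Mir142, without cKO replicate 1, where the lone cKO library is assumed to vary like the others. Without the CPM criterion, edgeR and DESeq2 without independent filtering also called Mir6236. The median log2 fold change inside ran from -0.19 to -0.10 over these omissions, that outside from -0.24 to -0.062, and the median of member minus host from -0.14 to -0.047, the cause being not tested. The sign turned for Mir142 (-0.65 to 0.036), Mir181a-1 (-0.22 to 0.82), Mir181b-1 (-0.24 to 0.45), Mir23a (-0.064 to 0.71), Mir7058 (-0.0079 to 0.15), Mir8104 (-0.15 to 0.31) and Mir8119 (-0.23 to 0.059) when a library was left out. A summed count of at least 20 gave 296 inside and 52 outside members and one of at least 100 gave 116 and 23. Counts of members with separated libraries, left out 1 library at a time after seeing the data, ran from 46 to 94 above and from 118 to 133 below, that is 16.9% to 34.6% and 43.4% to 48.9% of members, against 35.6% to 39.3% and 35.0% to 37.8% of the 13716 rows.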
